A study of Homo sapiens with 10 samples.

Results

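NRF2, the transcription factor encoded by NFE2L2, switches on antioxidant and detoxification genes when cells meet oxidants or electrophiles. In resting cells KEAP1 binds NRF2 and passes it to a CUL3 ubiquitin ligase for degradation. When reactive molecules modify KEAP1, NRF2 accumulates, pairs with a small MAF protein and binds antioxidant response elements near its target genes. The genes described here are 8 such targets and KEAP1 itself. HMOX1 encodes heme oxygenase-1, which breaks down heme and releases iron, and FTL and FTH1 encode the light and heavy chains of ferritin, which stores iron. GCLC and GCLM encode the catalytic and modifier subunits of glutamate-cysteine ligase, the first enzyme of glutathione synthesis. TXNRD1 encodes thioredoxin reductase 1, NQO1 a quinone reductase, and OSGIN1 a stress-induced growth inhibitor.

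The genes were taken by the gene name of each spot that was not a control spot. They comprise 9 of the 28090 named genes on the array, with 17 of 41000 probes and 26 of 43376 spots. HMOX1 was read by 10 spots of 1 probe, FTH1 by 5 probes, FTL by 3, GCLC and GCLM by 2 each, and the other 4 genes by 1. All 17 probes were well above background on 10 of 10 arrays, and 0 of them were saturated on any array, so all 9 genes passed the filter on dim probes. Their probes lie on hg18 at chr22:34120122-34120181 for HMOX1, chr19:54161668-54161727 for FTL, chr11:61488317-61488347 for FTH1, chr6:53470156-53470215 for GCLC, chr1:94127122-94127181 for GCLM, chr12:103266763-103266822 for TXNRD1, chr16:68301775-68301834 for NQO1, chr16:82556650-82556709 for OSGIN1 and chr19:10458262-10458321 for KEAP1. For the 4 genes with more than 1 probe these are the positions of the brightest, which stands for the gene below. The placement of the probes in exons was not analysed here. Ferritin chains have many processed pseudogenes, and their probes may also bind transcripts of such copies.

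PC-3, a line from a human prostate carcinoma, was profiled for mRNA on 10 single-color arrays, 2 for each of 5 groups labelled as biological replicates. Untreated cells were taken at 0 h, and the other cells were kept for 24 h with DMSO, the solvent of the drugs, with 60 µM luteolin, a dietary flavonoid, with 60 µM gefitinib, an inhibitor of the EGF receptor kinase, or with both drugs at these doses. For the 6 drug-treated arrays the name of the scanner file carried another treatment than the labels: gefitinib for the arrays labelled luteolin, both drugs for those labelled gefitinib, and luteolin for those labelled luteolin plus gefitinib. Groups follow the labels, and under the file names each value below would belong to that other treatment. The DMSO and 0 h arrays carried the same treatment in both.

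Slide and replicate number overlapped in part. Slide 1 held replicate 1 of DMSO and of the 3 drug-treated groups, slide 2 held replicate 2 of 0 h, DMSO, luteolin and the combination, and slide 3 held replicate 1 of 0 h and replicate 2 of gefitinib. The 75th percentile of the processed signal was 540 to 1402 per array, and it was lowest on the arrays labelled gefitinib (651 and 628) and on replicate 2 of the combination (540), against 1350 and 1283 with DMSO. Of all probes, 63.4% to 70.4% were well above background. The keratins KRT8, KRT18 and KRT19 were well above background on 10 of 10 arrays by all their probes, as in epithelial cells, and FOLH1 and the leukocyte gene PTPRC were so on 0 of 10. KLK3, which encodes prostate-specific antigen, was well above background on 10 of 10 arrays with 1 of its 3 probes, which targets a variant transcript, and on 0 of 10 with the other two. The endothelial gene PECAM1 had processed signals of 24.2 to 292 and the fibroblast gene COL1A1 of 14.4 to 274, above background on 10 and 9 arrays, and the part of other cells in the results was not tested.

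Below, a processed signal is the background-subtracted brightness of a probe as deposited. A level is its log2 minus the log2 of the 75th percentile of the same array. A change is a difference of mean levels, with its standard error from a limma model of all 10 arrays. A gene was called, and is said to have risen or fallen, when the adjusted p (limma, Benjamini-Hochberg over all probes kept) was under 0.05 and the change was at least 2-fold. Since the RNA of whole cultures was measured, fewer cells that express a gene and less of its RNA per cell cannot be told apart.

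The core of the antioxidant response element, TGACNNNGC on either strand, was looked for in the 250 bases before each gene start of the RefSeq promoter table (GRCh38). The table held 9 windows for 7 of the 9 genes, and 4 of these windows, of 3 genes, carried the core. It occurred in 10.9% of all 35116 windows. The matches are shown with 10 bases on each side, because they are the letters that the name of this gene group refers to. Capitals mark the core, written along the strand of the gene.
GCLM, chr1:93909446-93909474, minus strand: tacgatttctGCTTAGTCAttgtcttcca
KEAP1, chr19:10502807-10502835, minus strand: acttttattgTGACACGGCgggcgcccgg
KEAP1, chr19:10502784-10502812, minus strand: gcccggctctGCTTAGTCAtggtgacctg
TXNRD1, chr12:104215670-104215698, plus strand: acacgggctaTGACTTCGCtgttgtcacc
TXNRD1, chr12:104286920-104286948, plus strand: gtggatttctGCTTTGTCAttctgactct
The core began 34 bases before the start of GCLM, 54 and 31 bases before 1 of 2 starts of KEAP1, and 99 and 102 bases before the 2 starts of TXNRD1. The windows of GCLC, NQO1, OSGIN1 and FTL and the other window of KEAP1 held no such letters, which says nothing of elements farther away. HMOX1 and FTH1 had no entry.

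HMOX1 had its highest mean levels on the drug-treated arrays, but its replicates lay far apart and no change was called. Its processed signal was 2967 and 5156 at 0 h and 1896 and 3339 with DMSO. It was 6047 and 12465 with luteolin, 2275 and 7511 with gefitinib, and 3894 and 23889 with both drugs. Replicate 2 was the higher in every group, by 1.85-fold with DMSO and by 9.83-fold with both drugs after scaling. Each array read HMOX1 on 10 spots, whose signals had a standard deviation of only 0.014 to 0.055 on the log2 scale. The gaps between replicates were thus many times the spread between spots of an array.

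**Figure D1:**
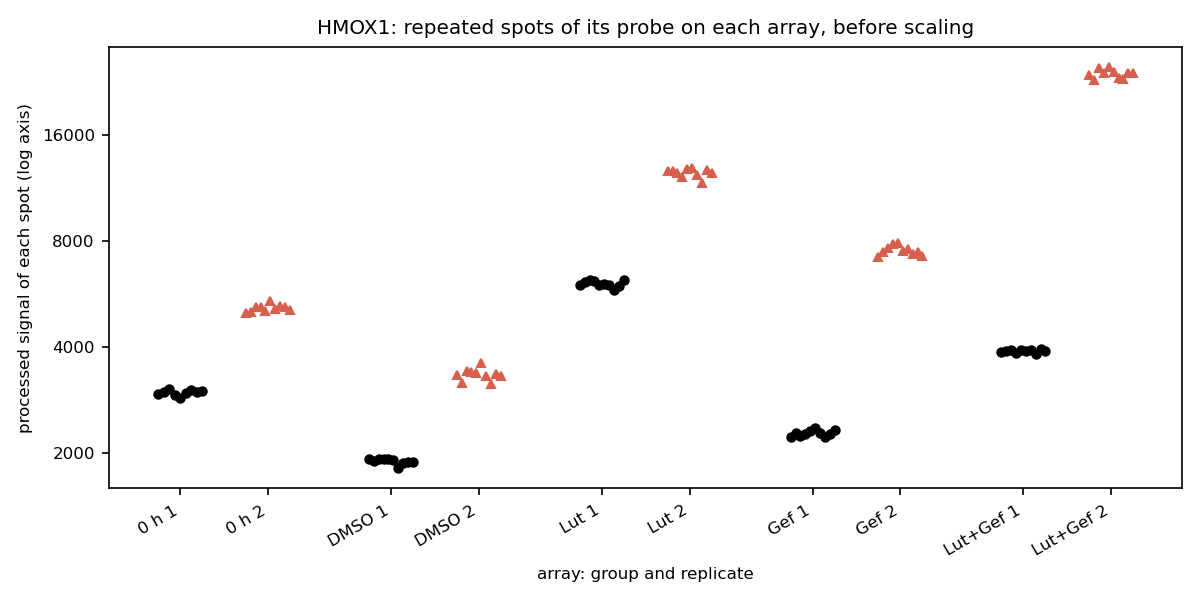
Processed signal of each spot of the HMOX1 probe on the 10 arrays, on a log axis and before scaling, with replicate 1 as black circles and replicate 2 as red triangles. The spots of an array lie close together, and replicate 2 lies above replicate 1 in each of the 5 groups, from 3339 against 1896 with DMSO to 23889 against 3894 with both drugs.

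As levels, HMOX1 ranked from DMSO (0.93 ± 0.63, SD, n = 2) through 0 h (1.61 ± 0.74), gefitinib (2.69 ± 1.25) and luteolin (2.97 ± 0.86) to luteolin plus gefitinib (3.82 ± 2.33). Neighbors in this order did not differ beyond their spread. Against DMSO the change was 2.04 ± 1.03 (SE) with luteolin (adjusted p = 0.186), 1.76 ± 1.03 with gefitinib (adjusted p = 0.178) and 2.88 ± 1.03 with both drugs (adjusted p = 0.0531, limma with Benjamini-Hochberg adjustment). After scaling, both arrays of each of these 3 groups lay above both DMSO arrays. As deposited, gefitinib replicate 1 (2275) lay below DMSO replicate 2 (3339). Here and below, the share of all genes whose arrays separate in such a way is not given. With slide as a block the HMOX1 changes were called, at 2.04 (adjusted p = 0.0445), 2.06 (0.0384) and 2.88 (0.0119). With replicate number as a block they were called too (limma, adjusted p = 0.0303, 0.0272 and 0.00745), though the numbers were not taken to pair the arrays. With normexp background correction HMOX1 was called with both drugs only (2.79, adjusted p = 0.0152), as it was with a filter for probes above background on all arrays (2.88, adjusted p = 0.0312). In a fit of only the groups compared, HMOX1 was called with luteolin (2.04, adjusted p = 0.0421). Without scaling between arrays, the HMOX1 change with gefitinib was 0.72 against DMSO and 0.08 against 0 h, and neither was called. On slide 1 HMOX1 was higher than on its DMSO array by 1.88 with luteolin, 1.32 with gefitinib and 1.68 with both drugs, on slide 2 by 2.20 with luteolin and 4.09 with both drugs, and on slide 3 it was 2.50 higher with gefitinib than at 0 h. Without replicate 1 of the combination, the change of HMOX1 with both drugs was 4.53 (adjusted p = 0.00766), and without its replicate 2 the same contrast was at its lowest, 1.24.

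The ferritin chains were higher relative to the rest of the array with gefitinib, and the signals of the probes that stand for them were not higher as deposited. FTL gave processed signals of 18378 and 23429 with DMSO, 31363 and 30107 with luteolin, 19602 and 20942 with gefitinib and 14596 and 19344 with both drugs, beside 17581 and 18798 at 0 h. Only the luteolin pair lay above all 8 other arrays. The FTH1 probe was almost flat, at 237026 and 236696 with DMSO, 265094 and 264937 with luteolin, 239740 and 222793 with gefitinib, 246184 and 234523 with both drugs and 248856 and 237650 at 0 h.

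On the level scale FTL rose by 1.01 ± 0.33 against DMSO on the arrays labelled gefitinib (adjusted p = 0.0316) and FTH1 by 1.01 ± 0.21 (adjusted p = 0.00549), but without scaling between arrays the values were -0.034 for FTL and -0.035 for FTH1. Under quantile normalization the changes were 0.35 for FTL (adjusted p = 0.278) and 0.08 for FTH1 (adjusted p = 0.612), and neither was called. The 3 probes of FTL gave 1.00 to 1.04, and 4 of the 5 probes of FTH1 gave 0.90 to 1.10. The remaining FTH1 probe gave a larger change (adjusted p = 0.0102), and it was also higher as deposited, at 128095 and 147820 with gefitinib against 86221 and 115631 with DMSO. With normexp background correction FTL was at 0.93 and FTH1 at 0.95, both short of 2-fold. The FTL call was also lost without any 1 of the DMSO or gefitinib arrays (adjusted p = 0.0587 to 0.166) and without luteolin replicate 2 (0.0501) or with no filter on dim probes (0.0515), and FTH1 was short of 2-fold without DMSO replicate 1 (0.97) or gefitinib replicate 1 (0.98). With slide as a block both calls stood, at 1.19 for FTL and 1.13 for FTH1. The part of the lower overall signal of these arrays in the ferritin values was not tested further.

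With luteolin the change against DMSO was 0.82 ± 0.33 for FTL (adjusted p = 0.106) and 0.41 ± 0.21 for FTH1 (adjusted p = 0.193), and with both drugs it was 0.64 ± 0.33 for FTL (adjusted p = 0.148) and 0.97 ± 0.21 for FTH1 (adjusted p = 0.00983, short of 2-fold). With both drugs these values also moved with scaling, to -0.30 for FTL and 0.021 for FTH1 without any and to 0.29 and 0.10 under quantile normalization. For FTL with luteolin the difference had the same sign under every scaling, 0.57 with none and 0.92 under quantile normalization (adjusted p = 0.0312).

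**Figure D2:**
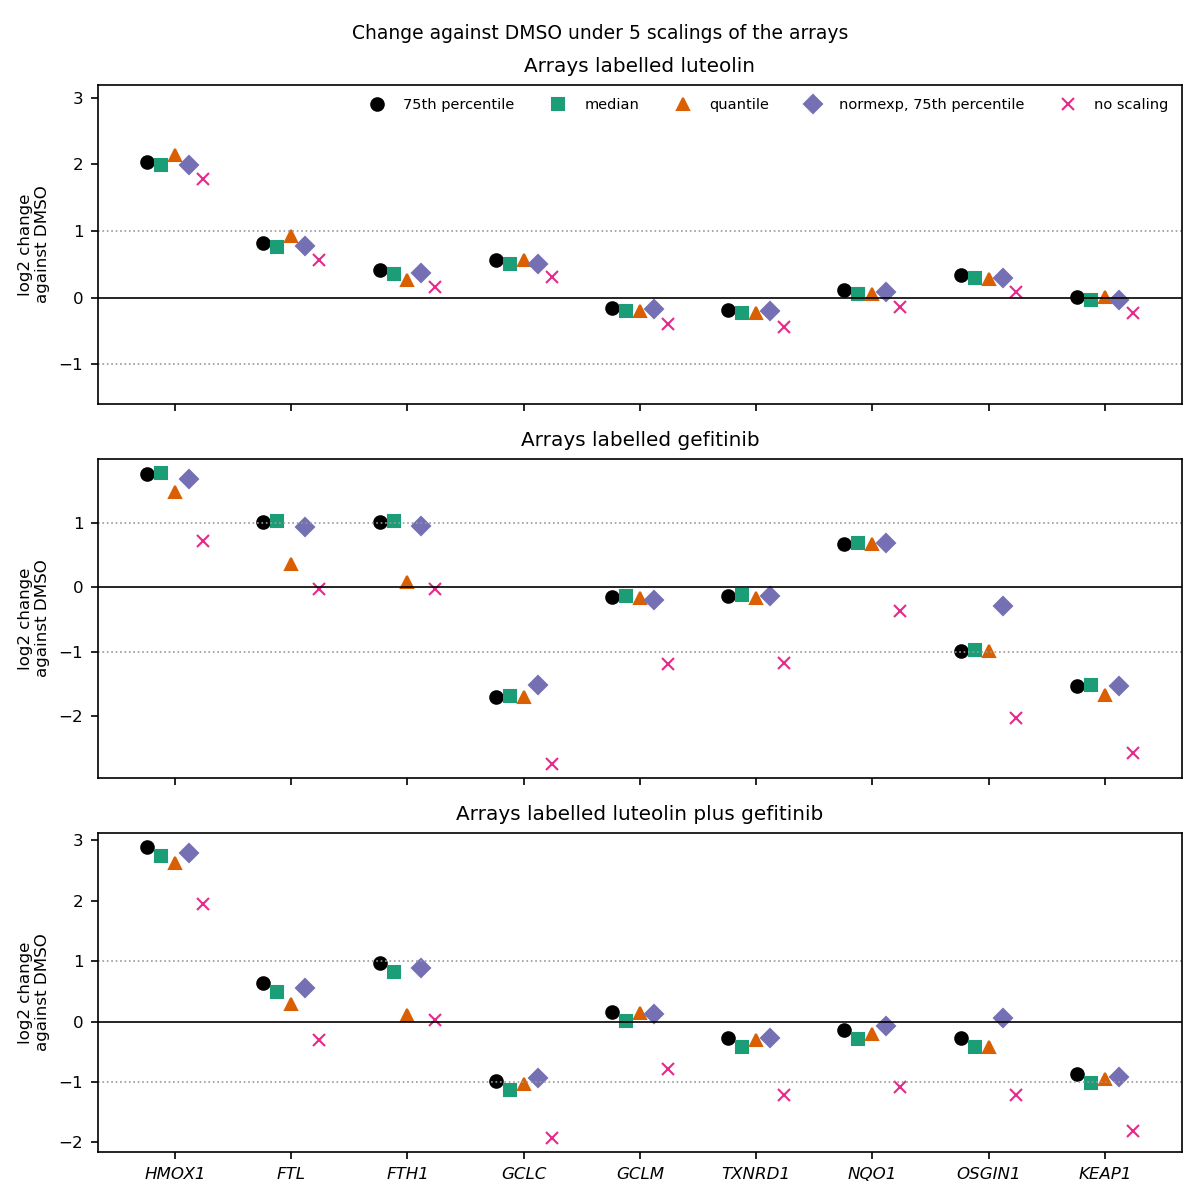
Log2 change against DMSO of the 9 genes on the drug-treated arrays grouped by their labels, under 5 scalings of the arrays shown by symbol, with dotted lines at a 2-fold change. On the gefitinib arrays FTL and FTH1 lie near 1 under the 75th percentile and near 0 without scaling, while GCLC and KEAP1 lie below -1 under every scaling.

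Of the subunits of glutamate-cysteine ligase, GCLC fell with gefitinib and GCLM was called in no comparison on the level scale. GCLC, the catalytic subunit, gave processed signals of 2278 and 2493 with DMSO and 2342 and 2237 at 0 h. The signal was 269 and 470 with gefitinib and 885 and 445 with both drugs, below every control array. On the arrays labelled luteolin it was 2671 and 3269, above every other array. GCLC fell by 1.70 ± 0.29 on the log2 scale against DMSO with gefitinib (adjusted p = 0.00256), which is 3.26-fold. Its second probe gave -1.29 (adjusted p = 0.00326). The GCLC change was 0.56 ± 0.29 with luteolin (adjusted p = 0.199) and -0.98 ± 0.29 with both drugs (adjusted p = 0.0295, short of 2-fold). The fall of GCLC with gefitinib was called under 22 of 25 alternatives, and on slide 1 alone it was -2.03. GCLC with both drugs was also called under quantile normalization (-1.04), median scaling (-1.13) and no scaling (-1.93), and without replicate 1 of that group (-1.14).

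GCLM, the modifier subunit, lay near the 75th percentile of its array. Its levels were 0.05 and 0.03 with DMSO, -0.36 and 0.13 with luteolin, -0.34 and 0.10 with gefitinib and 0.25 and 0.14 with both drugs. The changes against DMSO ran from -0.16 to 0.16, and the 95% interval with gefitinib was -0.64 to 0.33. The second GCLM probe gave -0.49 with gefitinib (adjusted p = 0.0709), with levels of -0.41 and -0.67 there, and -0.22 with both drugs (adjusted p = 0.396), where the brightest probe was at 0.16. As deposited, however, the GCLM signal was 1393 and 1307 with DMSO and 514 and 674 with gefitinib, and without scaling that difference was called at -1.20 (adjusted p = 0.0105). It lay at -0.16 relative to the 75th percentile of each array, and the sign of that GCLM value turned when gefitinib replicate 1 was left out (0.066).

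**Figure D3:**
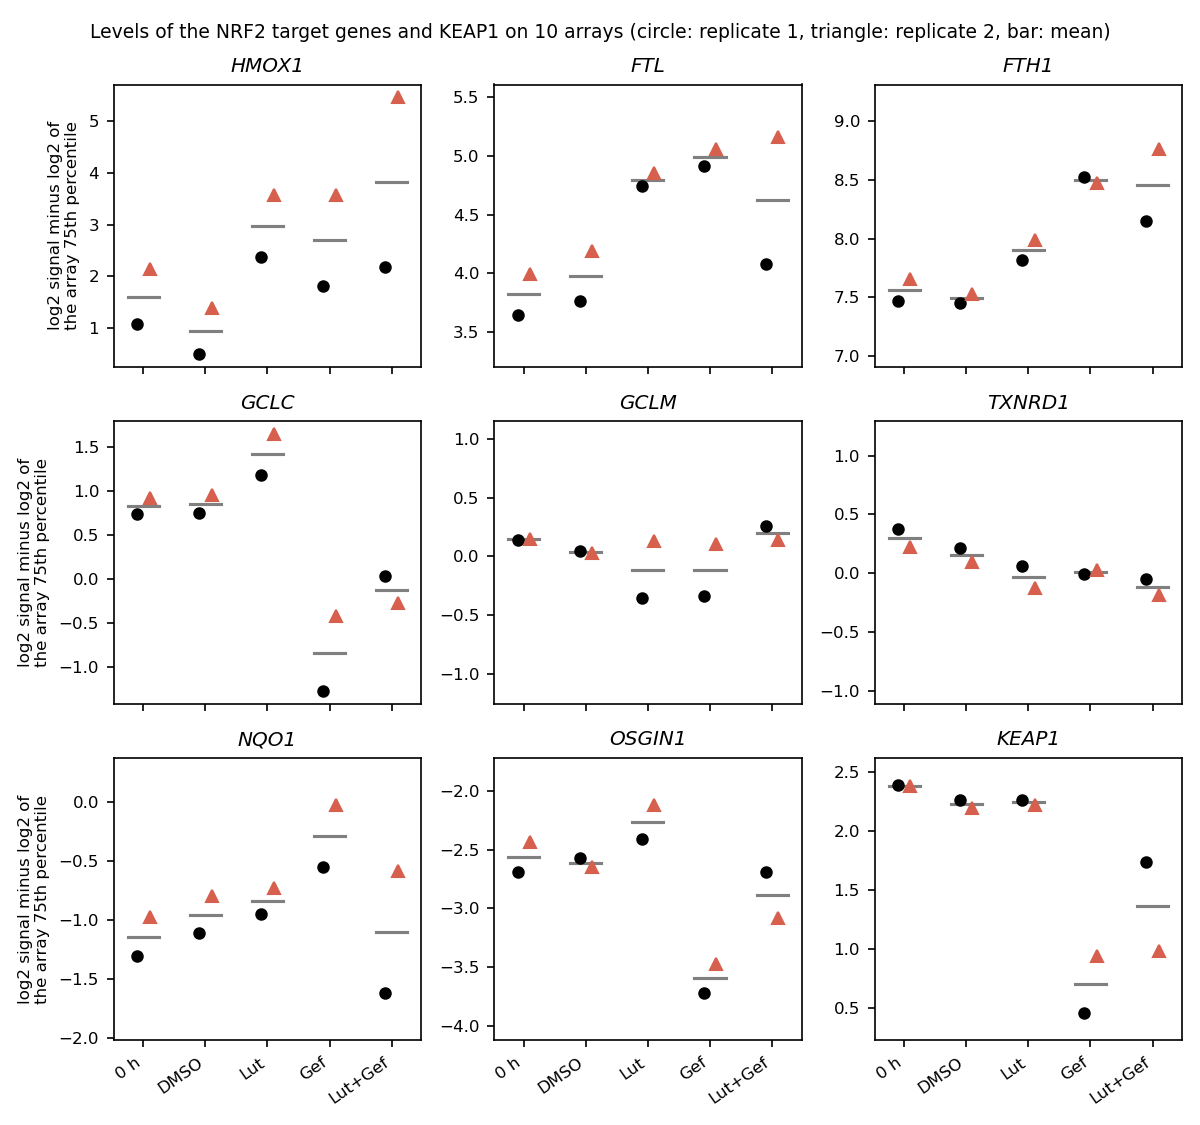
Levels of the 9 genes on the 10 arrays, as log2 of the processed signal minus log2 of the 75th percentile of the array, with replicate 1 as black circles, replicate 2 as red triangles and gray bars at the mean of each group; the vertical axis differs between panels. GCLC, OSGIN1 and KEAP1 are lowest on the arrays labelled gefitinib, and the replicates of the combination lie farthest apart for HMOX1, at 2.17 and 5.47.

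TXNRD1, which keeps thioredoxin reduced, was called in no comparison on the level scale. Its levels were 0.21 and 0.09 with DMSO and 0.06 and -0.13 with luteolin, -0.01 and 0.02 with gefitinib and -0.05 and -0.19 with both drugs. All 6 drug-treated arrays lay below the DMSO arrays, with changes of -0.18, -0.14 and -0.27 and adjusted p values of 0.429, 0.455 and 0.188. Both DMSO arrays in turn lay below both 0 h arrays (0.37 and 0.23), a separation with no drug. Without scaling the TXNRD1 change was called, at -1.19 with gefitinib (adjusted p = 0.0116) and -1.22 with both drugs (adjusted p = 0.0117).

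NQO1, widely used as a readout of NRF2 activity, was also called in no comparison on the level scale. Its processed signal was 625 and 739 with DMSO, 608 and 627 with luteolin, 444 and 617 with gefitinib and 282 and 361 with both drugs, beside 566 and 598 at 0 h. The NQO1 change against DMSO was 0.12 ± 0.34 with luteolin (adjusted p = 0.836), 0.66 ± 0.34 with gefitinib (adjusted p = 0.128) and -0.15 ± 0.34 with both drugs (adjusted p = 0.75). The NQO1 change with gefitinib was 0.66 to 0.68 under the other normalizations and -0.38 without scaling (adjusted p = 0.246). With both drugs NQO1 was called without scaling, at -1.09 (adjusted p = 0.00839), and lay at -0.08 to -0.29 under the other normalizations. The replicates of the combination spread over -1.62 and -0.58, wider than any other group of this gene. Without replicate 2 of the combination, NQO1 was at -1.33 with both drugs against gefitinib. Against 0 h the NQO1 change with gefitinib was 0.85 (adjusted p = 0.0626), and with slide as a block it was called (1.14, adjusted p = 0.012).

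OSGIN1 was lowest on the gefitinib arrays, with processed signals of 49.4 and 56.7 there and 134 and 63.7 with both drugs. The signals were 227 and 205 with DMSO, 217 and 218 at 0 h and 220 and 239 with luteolin, so the 4 arrays with gefitinib lay below all others in signal. These 4 arrays also had the lowest 75th percentiles. On the level scale replicate 1 of the combination (-2.69) lay close to 0 h replicate 1 (-2.69) and DMSO replicate 2 (-2.65). OSGIN1 fell against 0 h on the arrays labelled gefitinib, by 1.03 ± 0.20 on the log2 scale (adjusted p = 0.00397). Against DMSO the OSGIN1 change was -0.99 ± 0.20 (adjusted p = 0.00489), just short of 2-fold, and it passed 2-fold without scaling (-2.03, adjusted p = 0.00116), without DMSO replicate 2 (-1.02) and without gefitinib replicate 2 (-1.11). The call against 0 h also fell short of 2-fold under quantile normalization (-0.98) and median scaling (-0.96), and without gefitinib replicate 1 (-0.91) or 0 h replicate 2 (-0.91). Under normexp, run with an offset of 50 added to the signals, the OSGIN1 difference with gefitinib was -0.29 against both DMSO (adjusted p = 0.144) and 0 h (adjusted p = 0.134). The gefitinib signals were themselves near 50, so the offset alone shrinks this difference. The part of the background correction itself was not tested. With luteolin and with both drugs the changes against DMSO were 0.34 (adjusted p = 0.255) and -0.28 (adjusted p = 0.291).

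KEAP1, the inhibitor of NRF2, fell with gefitinib. Its processed signal was 6476 and 5881 with DMSO, 7342 and 6144 at 0 h and 5647 and 4859 with luteolin. It was 893 and 1207 with gefitinib and 2889 and 1065 with both drugs, and these 4 arrays lay below all others. The change against DMSO was -1.53 ± 0.26 with gefitinib (adjusted p = 0.00244, 2.89-fold lower), 0.015 ± 0.26 with luteolin (adjusted p = 0.973) and -0.87 ± 0.26 with both drugs (adjusted p = 0.0296, short of 2-fold). On slide 1 KEAP1 was at -1.81 with gefitinib and -0.52 with both drugs, and on slide 2 it was at -1.22 with both drugs. The fall with gefitinib was called under 22 of 25 alternatives. KEAP1 with both drugs was also called under median scaling (-1.02), under no scaling (-1.82) and without replicate 1 of that group (-1.25, adjusted p = 0.00522).

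**Figure D4:**
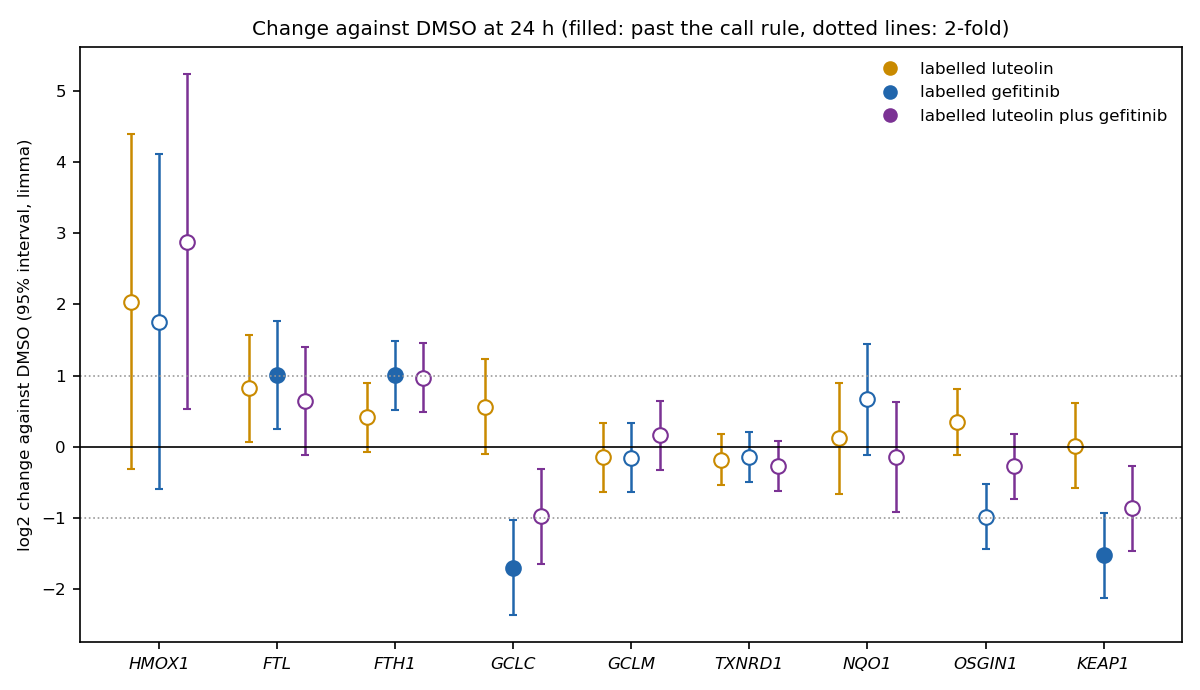
Log2 change against DMSO of the 9 genes at 24 h on the drug-treated arrays grouped by their labels, with 95% intervals from the limma model, filled symbols for called genes and dotted lines at 2-fold. Filled symbols appear for FTL, FTH1, GCLC and KEAP1 on the gefitinib arrays, and the HMOX1 intervals are the widest.

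In counts, 4 of the 9 genes were called on the arrays labelled gefitinib against DMSO, 2 higher and 2 lower, beside 29.9% of the 19718 genes tested. With luteolin 0 of 9 were called beside 13.4%, and with both drugs 0 of 9 beside 19.8%. At an unadjusted p under 0.05, limma gave 1, 5 and 4 of the 9 genes for luteolin, gefitinib and both drugs. The share of all genes at an unadjusted p is not given here or below. For limma it is no lower than the share called in the same comparison, since an adjusted p is never below its p. The methods' t-test, with no minimum fold, gave 1, 2 and 0 unadjusted and 0 in each after adjustment. The median change of the 9 genes was 0.34, -0.14 and -0.15 in these groups, and that of all genes tested 0.08, 0.22 and 0.16. DMSO against 0 h gave 0 of 9, also at an unadjusted p, beside 0.0355% of all genes.

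Against 0 h, 4 genes were called with gefitinib beside 29.0% of all genes. These comparisons had other control arrays than those against DMSO but the same drug-treated arrays, so they are no independent repeat. FTL was 1.16 higher (adjusted p = 0.0182), beside 14.5% of all genes raised, and GCLC (-1.68, adjusted p = 0.00268), OSGIN1 (-1.03) and KEAP1 (-1.69, adjusted p = 0.00169) fell, beside 14.5% lowered. With slide as a block, 7 genes were called in this comparison, beside 31.3% of all genes. FTL against 0 h was not called under quantile normalization (0.48) or no scaling (0.16), nor without 0 h replicate 1 (0.99), gefitinib replicate 1 (adjusted p = 0.0549) or gefitinib replicate 2 (adjusted p = 0.0729). With both drugs only KEAP1 was called (-1.03, adjusted p = 0.0163) beside 8.32% lowered and 19.8% called in all. The KEAP1 call was lost without either 0 h array (adjusted p = 0.0716 and 0.0756), without replicate 2 of the combination (0.0673) and with slide as a block (0.0519). With luteolin 0 of 9 were called beside 16.1%, with 1 at an unadjusted p, and by the methods' t-test 1 unadjusted and 0 adjusted.

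The 2 drugs were compared at the same dose and time over 3 pairs of drug-treated groups. The arrays labelled luteolin were higher than those labelled gefitinib for GCLC by 2.26 ± 0.29 (adjusted p = 0.000445), OSGIN1 by 1.33 ± 0.20 (adjusted p = 0.000916) and KEAP1 by 1.55 ± 0.26 (adjusted p = 0.00147), 3 of 9 genes beside 18.1% of all genes raised and 36.6% called in all. HMOX1 differed by 0.28, with a 95% interval of -2.07 to 2.64, which leaves its order unresolved. The combination was lower than luteolin for GCLC, at -1.54 ± 0.29 (adjusted p = 0.00492), 1 of 9 beside 9.75% lowered and 21.0% called in all. The combination against gefitinib gave 0 of 9 beside 27.0%, with 4 at an unadjusted p, and 0 by the methods' t-test with or without adjustment. OSGIN1 there was 0.71 higher (adjusted p = 0.0205), GCLC 0.72 (0.0731) and KEAP1 0.66 (0.0667).

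The departure of the combination from the sum of the 2 single changes passed an adjusted p under 0.05 for 0 of the 9 genes by limma, beside 34.2% of all genes, with 1 gene at an unadjusted p. It was -1.18 ± 0.47 for FTL (adjusted p = 0.0834), -0.92 ± 0.48 for NQO1 (adjusted p = 0.168) and 0.65 ± 0.37 for KEAP1 (adjusted p = 0.205). For HMOX1 the interval of this departure ran from -4.24 to 2.42. Without replicate 2 of the combination, 4 genes passed, FTL, FTH1, NQO1 and KEAP1, beside 39.6% of all genes in that fit. FTL passed with slide as a block, beside 31.4%, and with normexp background correction.

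The replicates of the combination disagreed more than those of any other group. The median SD over all genes was 0.25 there and 0.09 to 0.18 in the other groups on the log2 scale. KEAP1 levels were 1.74 and 0.98, FTL 4.08 and 5.16, and FTH1 8.15 and 8.76, while GCLM (0.25 and 0.14) and TXNRD1 (-0.05 and -0.19) were close. Without replicate 1 of the combination, 5 of the 9 genes were called against DMSO, namely HMOX1, FTL, FTH1, GCLC and KEAP1, beside 27.8% of all genes in that fit. Without its replicate 2, 0 of 9 were called beside 13.9%.

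Other genes of the NRF2 pathway were taken from a list of 47, of which 46 were tested and AKR1C2 had no probe under that name. Against DMSO 8 rose and 0 fell with luteolin (7.22% and 6.17% of all genes), 10 rose and 3 fell with gefitinib (15.6% and 14.3%), and 7 rose and 1 fell with both drugs (12.1% and 7.69%). The median change of the list was 0.19, 0.51 and 0.14. Under quantile normalization the gefitinib count was 4, 1 higher and 3 lower, and without scaling it was 12, all lower.

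With luteolin the 3 largest rises were in SLC7A11, SLC3A2 and SQSTM1. SLC7A11, the cystine importer that feeds glutathione synthesis, had processed signals of 595 and 614 with DMSO and 3291 and 4497 with luteolin. On the arrays labelled gefitinib they were 173 and 142, and on those of both drugs 494 and 328. SLC7A11 rose by 2.92 ± 0.23 with luteolin (adjusted p = 0.000398), and its change with gefitinib was -0.90 (adjusted p = 0.0116, short of 2-fold). SLC3A2, the heavy chain that pairs with SLC7A11, rose by 1.87 ± 0.29 with luteolin (adjusted p = 0.00311) and by 1.45 ± 0.29 with both drugs (adjusted p = 0.00693), though the latter was 0.50 without scaling (adjusted p = 0.197). SQSTM1, the autophagy receptor p62 that can also bind KEAP1, rose by 1.72 ± 0.19 with luteolin (adjusted p = 0.000963) and by 1.31 ± 0.19 with gefitinib (adjusted p = 0.00121), the latter at 0.65 under quantile normalization and 0.27 without scaling, where it was not called.

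Among the regulators, the mRNA of NRF2 itself fell with gefitinib. NFE2L2 gave processed signals of 5156 and 4879 with DMSO, 5029 and 5723 with luteolin, 884 and 1069 with gefitinib and 2786 and 1288 with both drugs. NFE2L2 changed by -1.33 ± 0.21 with gefitinib (adjusted p = 0.00187). With the median over its probes the NFE2L2 change was -0.85, short of 2-fold. BTRC, a substrate receptor of another ubiquitin ligase that can mark NRF2, changed by -1.11 ± 0.16 (adjusted p = 0.00129), with signals of 641 and 670 with DMSO and 140 and 157 with gefitinib, and it was short of 2-fold with normexp (-0.80) or the median over its probes (-0.79). MAFG, a small MAF partner of NRF2, rose by 1.81 ± 0.43 with gefitinib (adjusted p = 0.00866) and by 2.13 ± 0.43 with both drugs (adjusted p = 0.00728). For gefitinib the MAFG value was 0.77 without scaling and was not called (adjusted p = 0.0716), nor was it without gefitinib replicate 1 (adjusted p = 0.0555).

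TXN, the thioredoxin that TXNRD1 reduces, rose by 1.17 ± 0.26 with gefitinib on the level scale (adjusted p = 0.00651). Its signals as deposited were 40412 and 39403 with DMSO and 41946 and 45101 with gefitinib, and the change was 0.36 under quantile normalization (adjusted p = 0.115) and 0.12 without scaling, neither of them called. GPX2, a glutathione peroxidase, rose by 1.73 ± 0.46 with both drugs (adjusted p = 0.0192), from dim signals of 38.5 and 47.7 to 54.5 and 100.3, and was at 0.79 without scaling (adjusted p = 0.102). The GPX2 call was lost without DMSO replicate 1 (adjusted p = 0.103), DMSO replicate 2 (0.0634) or replicate 2 of the combination, where the change was 0.95. CBR3, a carbonyl reductase, fell with both drugs by 1.31 ± 0.22 on the log2 scale (adjusted p = 0.00393), from signals of 2245 and 2236 to 738 and 300. The median over the CBR3 probes gave -0.28 (adjusted p = 0.398), and without replicate 2 of the combination CBR3 was just short of 2-fold.

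Of all genes, 7.22% rose and 6.17% fell with luteolin, 15.6% and 14.3% with gefitinib, and 12.1% and 7.69% with both drugs. By role, the regulators of NRF2 gave 1 rise among 9 genes with luteolin, 2 rises and 2 falls with gefitinib and 4 rises with both drugs. The glutathione genes gave 2 rises among 7 with luteolin, 3 with gefitinib and 2 with both drugs. The quinone, carbonyl and aldehyde enzymes gave 3 rises among 11 with luteolin, where 7.22% of all genes rose, 1 rise with gefitinib and 1 fall, of CBR3, with both drugs. The thioredoxin and peroxiredoxin genes gave 1 rise among 4, with gefitinib, and the heme and iron genes 1 rise and 1 fall among 5, with gefitinib. The NADPH supply genes gave 2 rises among 6, with luteolin, and the export genes 2 rises among 4 with gefitinib and 1 with both drugs.

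**Figure D5:**
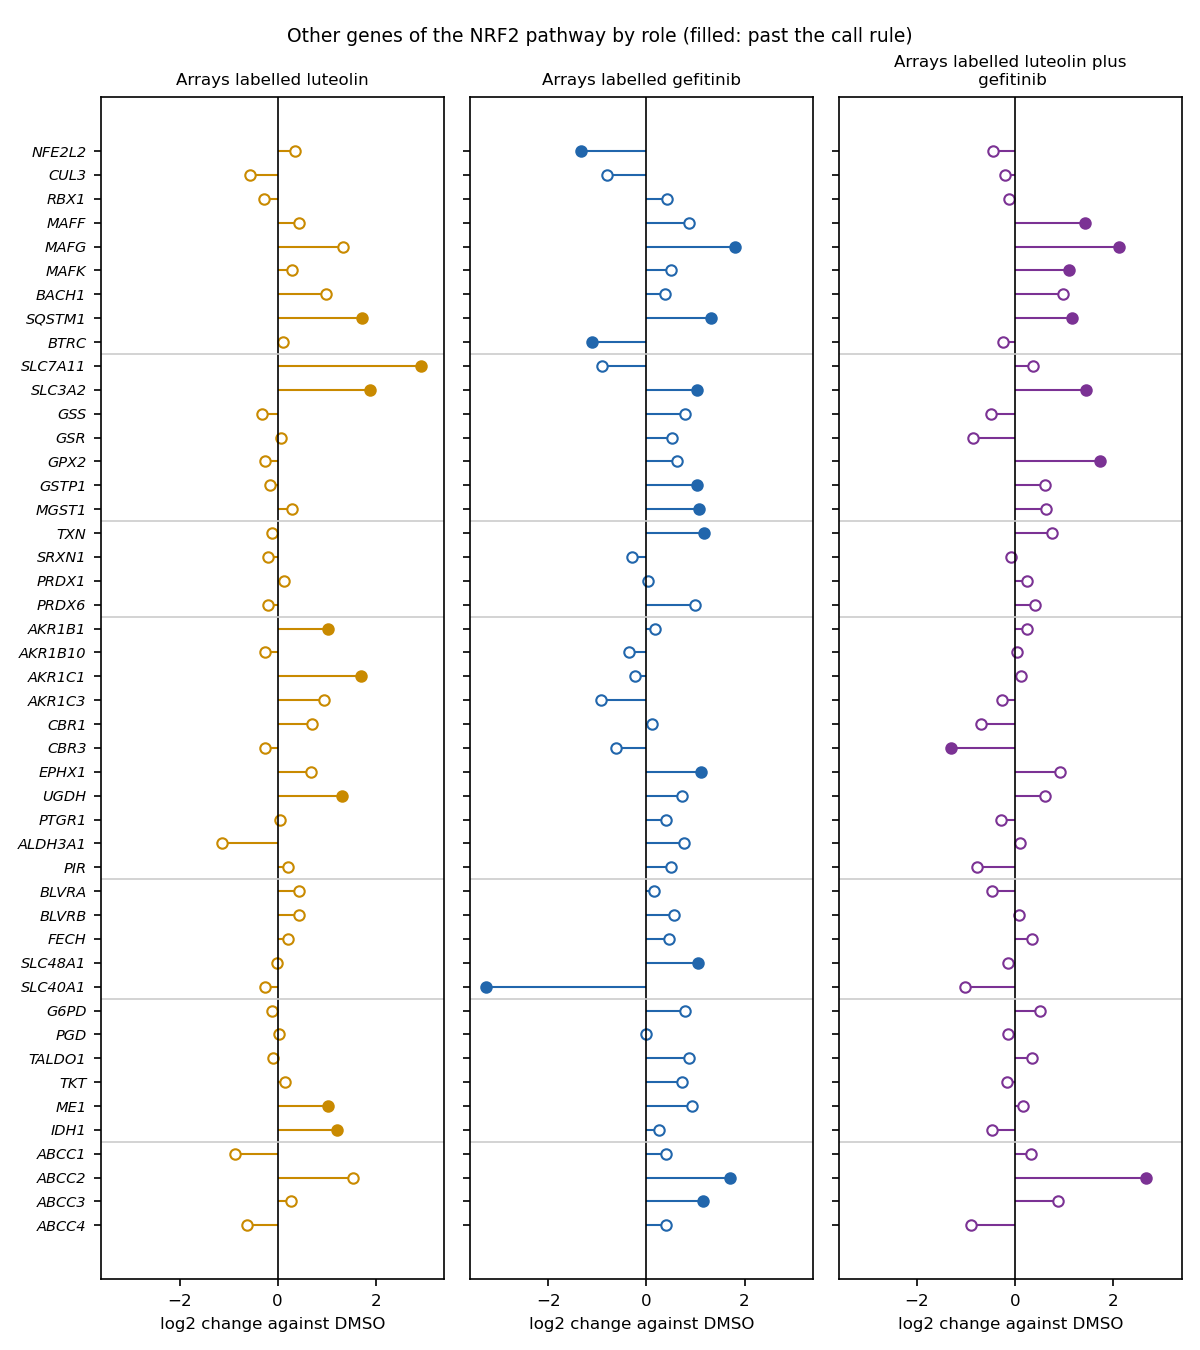
Log2 change against DMSO of the 46 other genes of the NRF2 pathway on the drug-treated arrays grouped by their labels, ordered from top to bottom by role (regulators of NRF2, glutathione, thioredoxin and peroxiredoxin, quinone and carbonyl reduction, heme and iron, NADPH supply, export) with gray lines between roles and filled symbols for called genes. SLC7A11 stands out at 2.92 with luteolin and lies at -0.90 with gefitinib.

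Over the 5 group means, the genes whose pattern was most like that of HMOX1 among 19709 others were THC2543854, AA081809, AV756170, ZBTB1 and FCGBP, with a root mean square difference of 0.15 to 0.18 on the log2 scale after centering each gene on its mean. Among those most like NQO1 were TNC, ENST00000353323, SFT2D1 and MED25, at 0.03 to 0.05. These likenesses are descriptions over 5 means of 2 arrays each.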

How the data were processed

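Per the file headers, the authors deposited processed signal intensities from Feature Extraction, Agilent's image software (the headers give 10.7.3.1), with background and spatial trend subtracted and no normalization between arrays. The series table repeated these signals (45015 of 45015 spots per array matched to 1e-04 of their size), and 0 columns of sample values were unused. Control and outlier spots were left out, spots of a probe were averaged as log2 and the 75th percentile of the array was subtracted. Probes well above background (at least 50% of spots) on both arrays of at least 1 group were kept, 28776 of 41000, and a gene was represented by its brightest probe. Symbols came from RefSeq for 23958 probes.

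A limma model (3.58.1, R 4.3.3) with 5 groups was fitted to the 10 arrays, with Benjamini-Hochberg adjustment over all probes kept in each of 11 comparisons. Signal over background sets the depth, and 2 arrays per group limit the precision. Named from the pathway list were, in each drug-treated group, the called genes that moved most against DMSO, up to 3 in either direction, that were well above background on the arrays compared. Of the genes these rules name, 1 marker and 1 gene of like pattern are not reported here. The genes, lists and rules were chosen with earlier results of these data known. Alternatives were normexp correction, quantile, median and no scaling, 2 filters, the median over probes, the table of values, replicate and slide blocks, fewer groups in the fit, groups taken from the file names, another fold rule, the methods' t-test (1-sample) and leaving out each array. The normexp correction was run with an offset of 50 added to the signals, which shrinks the log2 changes of dim probes. The alternative without scaling was chosen after seeing the data. On simulated arrays for luteolin against DMSO, 76% of 100 genes changed by 2 on the log2 scale and 89% of 100 changed by 3 were called, with 9 false calls among 28776 probes.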

Additional observations from a re-analysis of the deposited data

Results flagged for a closer look

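The main setting used levels of all 10 arrays, grouped by their labels, without blocks. There no test showed for any of the 9 genes that the effect of 1 drug differed with the other present. Of the genes named from the pathway list, 4 passed this test, and in the whole list 19 of the 46 genes tested did. The test was of the departure of the combination from the sum of the single changes. This departure is luteolin plus gefitinib against DMSO, minus the changes with either drug. It had an adjusted p under 0.05 (limma, Benjamini-Hochberg) in each of the 4 genes. These genes were named for a change against DMSO, which shares arrays with this departure, and 34.2% of all genes passed it.

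SQSTM1 departed by -1.88 ± 0.26 (SE) on the log2 scale (adjusted p = 0.0015). SLC7A11 departed by -1.66 ± 0.32 (adjusted p = 0.00607), with a change of 2.92 with luteolin alone and 0.36 with both drugs. SLC3A2 departed by -1.45 ± 0.41 (adjusted p = 0.0262), and it did not pass without scaling (adjusted p = 0.114), with no filter on dim probes (adjusted p = 0.0545) or without 5 of the 10 arrays in turn, DMSO 1 and 2, gefitinib 1, luteolin 2 and the combination 1 (adjusted p = 0.0692 to 0.0824). BTRC departed the other way, by 0.75 ± 0.23 (adjusted p = 0.0344), and with groups taken from the file names its departure was -0.99 (adjusted p = 0.00831). BTRC passed when 2 of the 10 arrays were left out in turn, gefitinib 2 and the combination 2, and missed without any other (adjusted p up to 0.135). It also missed with normexp, median scaling, no scaling, no filter on dim probes, a fit of fewer groups, a slide block and a 2-fold minimum.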

How the results depend on the processing

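No alternative gave a call of a member for DMSO against 0 h. GCLC and KEAP1 with gefitinib against DMSO kept their fall under each alternative but the file names and the methods' t-test. The share of all genes called also differs between alternatives and is not given beside the counts below. A count that moves is thus no result about these genes in particular. In counts of the 9 genes called, where 4 were called with gefitinib against either control in the main setting, normexp gave 3 for gefitinib against 0 h, 2 against DMSO, 1 for the combination against DMSO and 1 for the interaction. Quantile normalization gave 1 for luteolin, 2 for gefitinib and 2 for the combination against 0 h, 2 for gefitinib and 1 for the combination against DMSO. Median scaling gave 2 for the combination against either control. Without scaling, an alternative chosen after seeing the data, gefitinib gave 5 against 0 h and 5 against DMSO, all lower, the combination gave 4 against 0 h, 5 against DMSO and 3 against luteolin, and with gefitinib FTL (-0.034) and FTH1 (-0.035) turned negative against DMSO. Without scaling the median of all genes was -0.82 with gefitinib and -0.78 with both drugs against DMSO, and 3.63% and 6.87% of calls were rises, against 52.3% and 61.1% in the main setting, 66.3% and 71.3% with normexp and 40.2% and 44.8% under quantile normalization. Keeping only probes above background on every array gave 1 for the combination against DMSO. Fitting only the groups compared gave 0 for the combination against 0 h and 1 for luteolin against DMSO. With slide as a block the counts were 1 for luteolin and 7 for gefitinib against 0 h, 1 for luteolin, 5 for gefitinib and 1 for the combination against DMSO and 1 for the interaction.

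With no minimum fold, 3 genes passed for the combination against each of 0 h, DMSO and luteolin and 1 against gefitinib. Unadjusted, the methods' t-test gave 1 for luteolin and 0 for the combination against 0 h, 1 for luteolin and 2 for gefitinib against DMSO, 1 for luteolin against gefitinib and 0 for the combination against luteolin, and the adjusted test gave 0 in every comparison. It was not run for the interaction. Leaving out 1 array gave 2 to 4 calls for gefitinib against 0 h and against DMSO, 0 to 5 for the combination against 0 h and against DMSO, 1 to 2 against luteolin, 0 to 2 against gefitinib and 0 to 4 for the interaction.

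For the pathway list, gefitinib against DMSO gave 7 calls with normexp, 4 under quantile normalization, 8 under the file names and 28 with no minimum fold, and the combination gave 13, 17 and 21 under the file names, no minimum fold and no scaling. The methods' t-test gave 5 unadjusted for luteolin and 0 adjusted in each of the 3 groups. Without 1 array the list gave 5 to 10 calls for luteolin, 9 to 13 for gefitinib and 4 to 13 for the combination.

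Under the treatments of the file names, 1, 0 and 4 of the 9 genes were called for luteolin, gefitinib and the combination against 0 h, 0 and 4 for gefitinib and the combination against DMSO, 1 for luteolin against gefitinib, 0 and 3 for the combination against luteolin and gefitinib, and 2 for the interaction. Values that turned and were called under either grouping were, against DMSO with gefitinib, GCLC 0.56, KEAP1 0.015, BTRC 0.12, NFE2L2 0.35 and TXN -0.11, and against 0 h GCLC 0.59 and OSGIN1 0.29. For luteolin against gefitinib they were GCLC -1.54, OSGIN1 -0.62 and KEAP1 -0.88, and for the combination against gefitinib GCLC -2.26, OSGIN1 -1.33 and KEAP1 -1.55. For the interaction they were GCLC -1.29, OSGIN1 -1.05, BTRC -0.99, CBR3 0.96 and NFE2L2 -1.22. Values called under neither grouping also turned, such as OSGIN1 with gefitinib against DMSO (0.34) and GCLC with luteolin against DMSO (-0.98).

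Same-numbered replicates of 2 groups had deviations that correlated at -0.10 to 0.29 over 10 pairs of groups, with 6 above 0.1. Since not every pair was above 0.1 and no label gives the number a meaning, the numbers were not taken to pair the arrays, although HMOX1, FTL and NQO1 were each higher in replicate 2 of every group. A replicate block gave 5 calls for gefitinib against DMSO, 2 calls for the combination against 0 h, 1 each for luteolin and the combination against DMSO and 1 for the interaction. The calls gained against DMSO were of HMOX1, with adjusted p values of 0.0303 for luteolin, 0.0272 for gefitinib and 0.00745 for the combination, and the interaction was that of FTL. The cause of these differences was not tested.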
